A study of Homo sapiens with 2 samples.

Results

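MiR-155, miR-146a and miR-146b, 3 microRNAs (miRNAs) tied to the transcription factor NF-kappaB, were followed in CL1-5 cells with and without ANGPTL1 overexpression. CL1-5 is an invasive human lung adenocarcinoma line, and ANGPTL1 is a secreted angiopoietin-like protein. The members were the assays whose plain name is miR-155, miR-146a or miR-146b, which gave 3 of the 365 miRNA assays on the card, 1 per miRNA. They were chosen with their ratios in these samples known, so the ratios, the ranks and the places among other assays are given as descriptions, with no test.

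The 2 groups were CL1-5 cells carrying the vector pcDNA3.1 (vector control) and CL1-5 cells expressing ANGPTL1, with 1 RNA sample of each. Both had gone through G418 selection for 4 weeks and were used as stable lines, and whether each was a clone or a pool is not given in the sources used here. Mature miRNAs were read by TaqMan quantitative PCR from 500 ng of total RNA over 40 cycles. With 1 sample per group no difference has a replicate check. In bulk RNA, more miRNA per cell and more cells holding it cannot be told apart.

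NF-kappaB proteins wait in the cytoplasm bound to inhibitors and enter the nucleus when cytokine, Toll-like or stress signals have those inhibitors destroyed. MiR-155 is cut from the long noncoding RNA MIR155HG (also called BIC), which activated immune cells make through NF-kappaB and AP-1, and it lowers SOCS1 and INPP5D, brakes on cytokine and PI3K signalling. MiR-146a is made under NF-kappaB and acts as a feedback brake by repressing the signalling adaptors TRAF6 and IRAK1. MiR-146b comes from a gene on another chromosome and is held to share targets with miR-146a. MiR-155 is widely described as raised in lung cancer, and the miR-146 pair has been described in the inflammatory and migratory behaviour of epithelial tumour cells.

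The mature sequences show which of the 3 can be expected to pair with the same targets and how close the miR-146 assays' templates are. The sequences are those of RefSeq on GRCh38.p14, 5′ to 3′, with the seed (bases 2 to 8) in capitals. The assay names give no hairpin arm, and the older plain names of these miRNAs stood for the 5p arm, which is the arm shown.
miR-155-5p: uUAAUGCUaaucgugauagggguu
miR-146a-5p: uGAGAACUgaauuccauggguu
miR-146b-5p: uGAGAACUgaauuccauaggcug

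The miR-146 pair has 1 seed, GAGAACU, and miR-155 another, UAAUGCU. Counted from 1 at the 5′ end, miR-146a-5p and miR-146b-5p are identical over the first 17 bases, and over the 22 bases compared they differ by 2 substitutions, G18A and U21C (the miR-146a base first). MiR-146b-5p has 1 further base at its 3′ end. Whether each miR-146 assay also reads the other miRNA was not tested. Of the 351 miRNA names on the card, 295 matched a RefSeq mature name. Among these, no name outside the miR-146 pair had either arm with the seed GAGAACU, and none but miR-155 had UAAUGCU.

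MIR155 lies at chr21:25573980-25574044 inside the noncoding gene MIR155HG (chr21:25562145-25575168). MIR146A lies at chr5:160485352-160485450 inside the noncoding gene MIR3142HG (chr5:160468251-160487426). MIR146B lies at chr10:102436512-102436584, and no RefSeq gene in the table used spans it. The 3 miRNAs therefore come from 3 chromosomes and are not parts of 1 transcript.

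MiR-155 crossed threshold at cycle 31.34 in the vector control and at 28.18 in ANGPTL1 cells. This threshold cycle (Ct) marks when a well's fluorescence passes a set level, so a lower cycle means more template. The ANGPTL1 sample was 3.16 cycles earlier. The submitters' reference was RNU48, a small nucleolar RNA, and delta Ct is an assay's Ct less that of RNU48 in its own sample. Delta Ct of miR-155 went from 10.55 (control) to 6.97 (ANGPTL1), a difference of -3.58 cycles. With a doubling at each cycle this is 12.0-fold more miR-155 in ANGPTL1 cells, or 8.2-fold if template grew 1.8 times per cycle. On the same doubling, the miR-155 signal was 0.0667% of that of RNU48 in the control and 0.798% in ANGPTL1 cells.

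MiR-146a was the latest of the 3 in the control, at cycle 32.38, and stood at 30.65 in ANGPTL1 cells. Its delta Ct went from 11.59 to 9.44, a difference of -2.15 cycles, or 4.44-fold more in ANGPTL1 cells (3.54-fold with a gain of 1.8 per cycle). The ANGPTL1 sample was again the higher one, by less than for miR-155.

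For miR-146b the cycles were 31.14 (control) and 30.72 (ANGPTL1). Its delta Ct was 10.35 and 9.51, a difference of -0.84 cycles, or 1.79-fold more in ANGPTL1 cells (1.64-fold with a gain of 1.8 per cycle). Of these 0.84 cycles, 0.42 was the miRNA's own earlier cycle and 0.42 was the later cycle of RNU48, which read 20.79 (control) and 21.21 (ANGPTL1). Without a reference RNA the log2 ratio of miR-146b was therefore 0.42, against 3.16 for miR-155 and 1.73 for miR-146a.

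**Figure D1:**
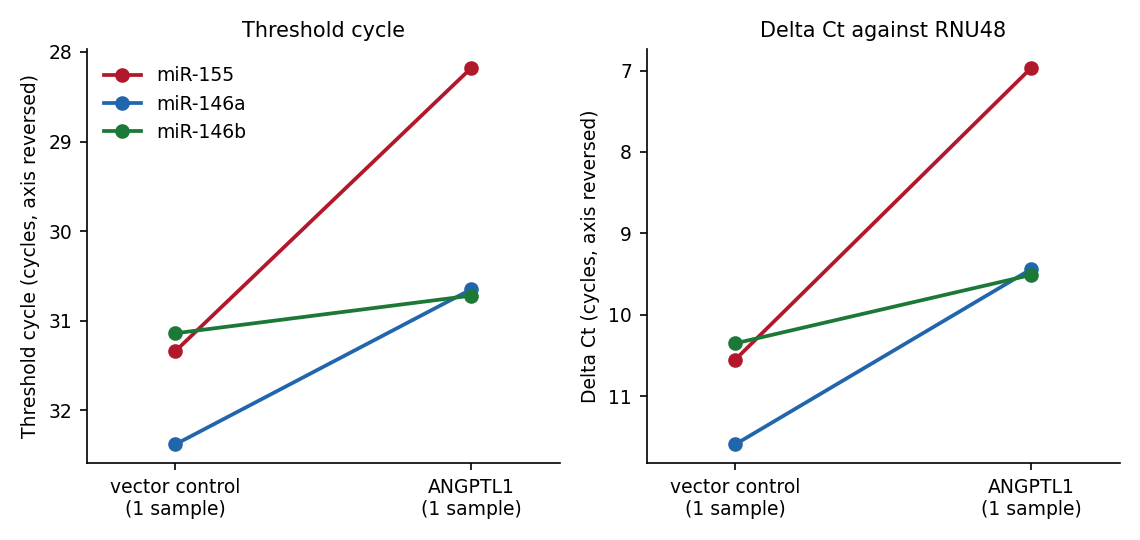
Threshold cycle (left) and delta Ct against RNU48 (right), in cycles on reversed axes so that higher points mean more miRNA, for the 1 vector control and the 1 ANGPTL1 sample; each line is 1 miRNA. MiR-155 climbs from cycle 31.34 to 28.18, miR-146a from 32.38 to 30.65, and miR-146b from 31.14 to 30.72.

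All 3 members were below cycle 35, the limit used for detection, in both samples, as were 145 of the 365 miRNA assays. Of the 3, miR-155 and miR-146a were at least 2-fold (and at least 4-fold) higher in ANGPTL1 cells and miR-146b was not. Over all 145 assays, 11 (7.59%) were at least 2-fold higher, a count that includes both members, and 72 (49.7%) had a ratio above 0. At 4-fold the count over all 145 was 4, both members again included. Without a reference RNA the same 2 members were at least 2-fold higher, as were 6 (4.14%) of all 145. As the members were picked from these same ratios, nothing is read from that share.

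The gap between the miR-146 assays changed between samples, a comparison in which the reference RNA cancels. MiR-146a was 1.24 cycles later than miR-146b in the control and 0.07 cycles earlier in ANGPTL1 cells. The difference of their log2 ratios was 1.31, so the fold difference of miR-146a was 2.48 times that of its near-identical relative miR-146b. MiR-155 was 1.04 cycles earlier than miR-146a in the control and 2.47 cycles earlier in ANGPTL1 cells, and it moved from 0.20 cycles later than miR-146b to 2.54 cycles earlier. Cycles of different assays also depend on each assay's own yield, so only the change in a gap, and not the gap itself, compares amounts.

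Ranked by cycle among the miRNAs detected in each sample, with 1 as the earliest, miR-155 was 112 of 157 in the control and 57 of 158 in ANGPTL1 cells. It thus went from later than 70.7% of the detected assays to later than 35.4%. MiR-146a went from rank 122 to rank 93, and miR-146b from rank 106 to rank 95. In the control all 3 were later than the median detected assay, and in ANGPTL1 cells miR-155 was earlier than it and the miR-146 pair later.

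Ranks among the 145 assays detected in both samples need no reference RNA. There miR-155 went from place 111 to place 57, a gain of 54 places, and no other assay gained as many. The median assay moved 4 places. MiR-146a gained 27 places, from 120 to 93, behind miR-155, miR-127 (33 places) and let-7b (28 places). MiR-146b gained 10 places, from 105 to 95, and 13 assays, itself included, gained at least as many.

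**Figure D2:**
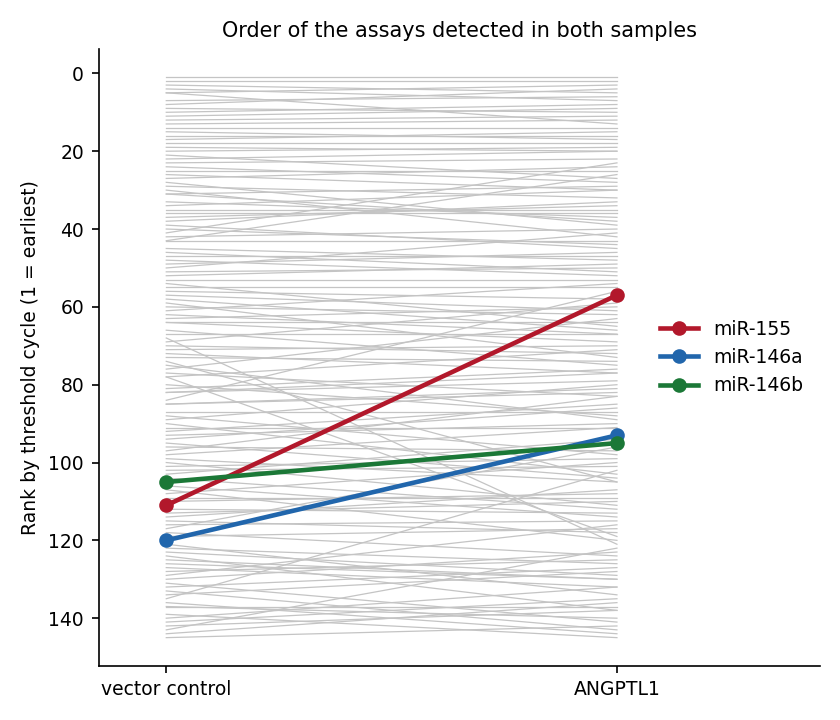
Rank by threshold cycle (1 is the earliest) of the 145 assays detected in both samples, in the vector control and in ANGPTL1 cells; grey lines are the other 142 assays. MiR-155 goes from place 111 to 57, miR-146a from 120 to 93 and miR-146b from 105 to 95.

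Late cycles are read less precisely than early ones, so each member was set beside assays of similar mean cycle, defined as those detected in both samples with a mean of both cycles within 1.5 of the member's. For miR-155 (mean cycle 29.76) there were 46 such assays, and all 46 had a lower log2 ratio than its 3.58. Their median was 0.05, their quartiles were -0.34 and 0.33, and 29 of them were within 0.5 of 0. The highest was let-7b, a repressor of RAS and HMGA2, at 1.88, which left a gap of 1.70 to miR-155. The lowest was miR-486, known from erythroid cells, at -3.58, as far below 0 as miR-155 was above it.

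For miR-146a (mean cycle 31.52) 39 of 40 assays of similar cycle had a lower log2 ratio than its 2.15. The exception was miR-127, from the imprinted 14q32 region, at 3.04. These 40 had a median of -0.14, with quartiles of -0.52 and 0.40, and the lowest was again miR-486. Counting size in either direction, 3 of the 40 were at least as far from 0 as miR-146a.

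For miR-146b (mean cycle 30.93) 40 of 44 assays of similar cycle had a lower log2 ratio than its 0.84. The 4 above it were miR-155 (the highest, at 3.58), miR-127, miR-146a and miR-200c, and the lowest was miR-486. The quartiles of the 44 were -0.52 and 0.26, and 8 of them were at least as far from 0 as miR-146b in either direction. The sets overlap, with 20 assays shared by those of miR-155 and miR-146a and 33 by those of the miR-146 pair.

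**Figure D3:**
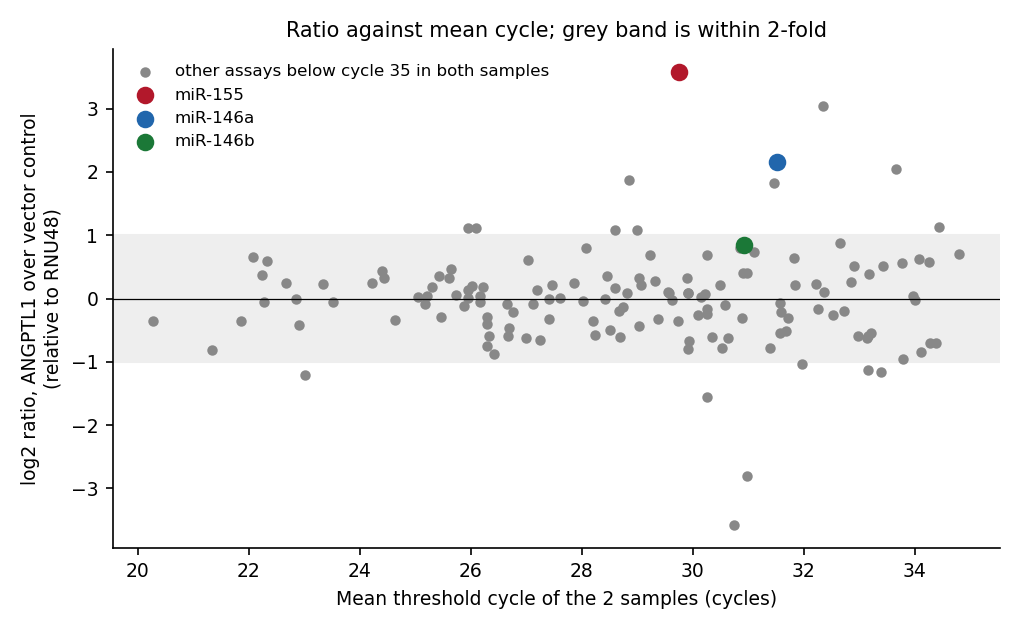
Log2 ratio of ANGPTL1 over vector control, relative to RNU48, against the mean threshold cycle of both samples for the 145 assays detected in both; the grey band marks ratios within 2-fold. MiR-155 at 3.58 is the highest point, miR-146a at 2.15 the third highest, and miR-146b at 0.84 lies inside the band.

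Among all 145 assays miR-155 had the highest log2 ratio, miR-146a the third and miR-146b ranked 13. Nearest in ratio to miR-155 were miR-127 (3.04), miR-146a (2.15) and miR-34c, a p53-induced miRNA (2.04). Nearest to miR-146a were miR-34c, let-7b (1.88) and miR-200c (1.82), a repressor of ZEB1 and ZEB2. Nearest to miR-146b were let-7d (0.80), miR-10a (0.80) and miR-589 (0.88). This likeness rests on 1 ratio from 2 samples.

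Among other miRNAs placed upstream or downstream of NF-kappaB, most assays detected in both samples had ratios below 0. The 3 members were above 0. MiR-181b, detected in ANGPTL1 cells alone and higher there, is given below. The list took 16 names, of which 14 were among the assays analysed here, on 16 assays. A total of 11 of these assays were detected in both samples, and relative to RNU48 0 of the 11 were at least 2-fold higher or lower (7.59% and 4.83% of all 145 were). Without a reference RNA 5 of the 11 were at least 2-fold lower (miR-15a, miR-301, both miR-9 assays and 1 miR-199a assay), as were 29 (20%) of all 145, and 0 were at least 2-fold higher. The median log2 ratio of the 11 was -0.42, against -0.01 over all 145 assays. Of the 11, 2 lay above 0, against 72 (49.7%) of all 145. Those 2 were miR-125b (0.43), which targets TNF and is moved by NF-kappaB signals, and miR-221 (0.25). Without a reference RNA the median of all 145 was -0.43 and that of the 11 was -0.84, and miR-221 turned to the lower side, at -0.17. MiR-222, which is transcribed with miR-221, was at -0.36.

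MiR-21, which inflammatory signalling induces and which lowers PDCD4, had a log2 ratio of -0.42, with cycles of 22.49 (control) and 23.33 (ANGPTL1). MiR-132, induced early by bacterial lipopolysaccharide together with miR-146a and miR-155 in monocytes, was at -0.12. The 2 assays named miR-9 were at -0.75 (number 4373285) and -0.63 (number 4378074). MiR-9 is known to repress NFKB1, but which hairpin arm each assay reads is not given, so this role may not hold for both. MiR-15a (-0.79) and miR-16 (-0.36), repressors of the kinase CHUK, were both below 0, as was miR-301 (-0.59), a repressor of the NF-kappaB inhibitor NKRF. An assay named miR-199a (number 4378068) was at -0.70 and near the detection limit, at cycles 33.83 and 34.95. MiR-199a is known to repress the kinase IKBKB, but the arm this assay reads is likewise not given.

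MiR-181b, which lowers importin-alpha3 and with it NF-kappaB entry into the nucleus, was the 1 assay of the list detected in ANGPTL1 cells alone, at cycle 31.95 against 35.77 in the control. With the control set to cycle 35 it was at least 11.1-fold higher. The median above leaves it out. Detection in 1 sample alone was not particular to this list. Of all 365 miRNA assays, 158 were detected in ANGPTL1 cells, 157 in the control and 145 in both. The remaining 4 assays (miR-143, miR-147, miR-223 and the other assay named miR-199a) were at cycle 35 or later in both samples. Of the 11 detected in both samples, 8 had a mean cycle more than 1.5 cycles earlier than that of any member, and miR-15a and 1 miR-9 assay lay within 1.5 cycles of a member.

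**Figure D4:**
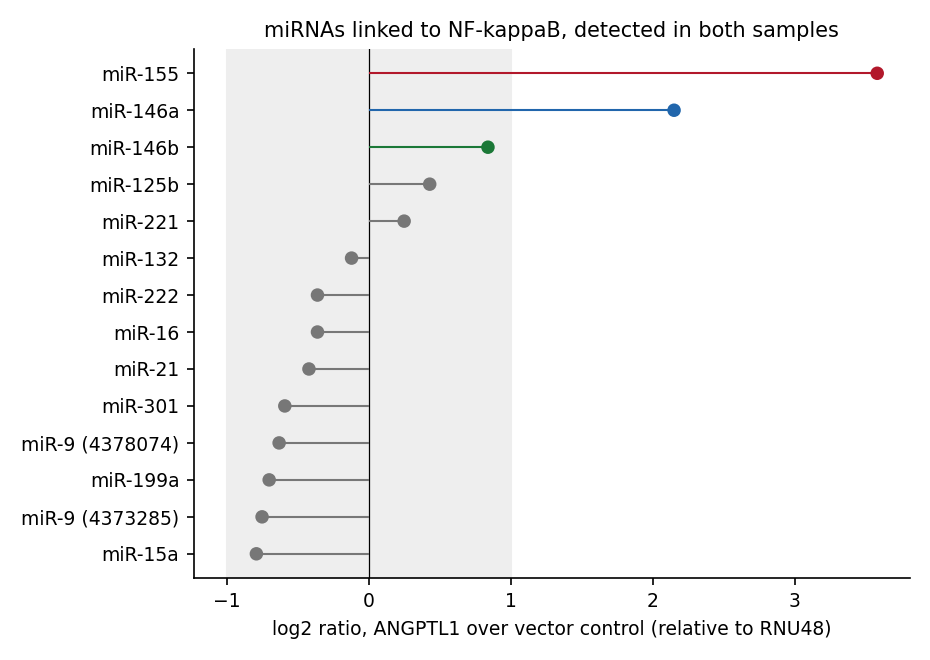
Log2 ratio of ANGPTL1 over vector control, relative to RNU48, for miR-155, miR-146a, miR-146b and the 11 other listed assays detected in both samples; the grey band marks ratios within 2-fold. The members stand at 3.58, 2.15 and 0.84, and the others between -0.79 and 0.43.

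Since miR-155, miR-146a and miR-223 are abundant in blood cells, markers of such cells were read beside them. Of the 4 listed blood-cell marker assays analysed here, 0 were below cycle 35 in ANGPTL1 cells, where the earliest stood at 36.30. In the control miR-142-3p, a miRNA of blood cell lineages, was detected at 34.51, and it was at 37.19 in ANGPTL1 cells (at least 1.05-fold lower there). MiR-223 was also later in ANGPTL1 cells, at 35.58 and then 40, while miR-142-5p (38.73 and 36.30) and miR-451 (38.50 and 36.83) were earlier there, all of these beyond the detection limit. MiR-486, the erythroid miRNA named above, was not on the marker list and was detected in both samples, at cycles 28.75 (control) and 32.75 (ANGPTL1). The part of blood-cell RNA in the members' ratios was not tested. Of the epithelial list, miR-200c and miR-203 were detected in both samples and the other 5 names in neither. The assays named miR-126, a miRNA of endothelium and lung, were at 0.33 (number 4373269) and -0.41 (number 4378064). Their cycles were 29.86 (control) and 29.95 (ANGPTL1) for the first, and 25.87 and 26.70 for the second. Which hairpin arm each reads is not given, so this role may not hold for both.

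The promoters of the members' host transcripts are shown where the promoter table used holds them, which was so for miR-155 and miR-146a. The promoters are RefSeq windows on GRCh38.p14, plus strand, from 250 bases before the start site through the first 50 bases of the transcript. MIR146B is not in the promoter table. Capitals mark matches on either strand to a loose form of the NF-kappaB site (GGG, then any 5 bases, then CC) and to TGAGTCA, an AP-1 site.
MIR155HG (chr21:25561895-25562194): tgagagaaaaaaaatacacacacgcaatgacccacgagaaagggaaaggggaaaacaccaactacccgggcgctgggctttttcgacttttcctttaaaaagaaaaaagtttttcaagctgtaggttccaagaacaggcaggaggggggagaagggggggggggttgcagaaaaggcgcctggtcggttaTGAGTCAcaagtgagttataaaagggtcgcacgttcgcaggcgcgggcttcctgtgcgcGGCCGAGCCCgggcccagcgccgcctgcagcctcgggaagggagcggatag
MIR3142HG (chr5:160468001-160468300): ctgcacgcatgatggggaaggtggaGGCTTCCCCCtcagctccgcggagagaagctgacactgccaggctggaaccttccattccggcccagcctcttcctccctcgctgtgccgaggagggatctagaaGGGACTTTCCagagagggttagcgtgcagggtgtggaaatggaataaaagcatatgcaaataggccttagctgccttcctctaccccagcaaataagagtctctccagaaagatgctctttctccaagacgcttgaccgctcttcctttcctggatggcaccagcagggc

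The loose site occurred 2 times in the MIR3142HG window and 1 time in that of MIR155HG, where it spans the start site, but 58.7% of 35116 RefSeq promoter windows hold it. One of the MIR3142HG matches, starting 120 bases before the start site, reads GGGACTTTCC, a classical NF-kappaB site that 67 windows (0.191%) hold on either strand. TGAGTCA occurred in the MIR155HG window 60 bases before the start site, and 4.95% of windows hold it. GGGACTTTCC, itself a match to the loose site, was copied from the MIR3142HG window. Its presence there was therefore fixed in advance, and its rare share over all windows supports nothing. TGAGTCA was also searched after the windows had been seen. A match gives letters in this window and says nothing of binding in these cells.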

How the data were processed

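Total RNA of 1 vector control and 1 ANGPTL1 sample was profiled on a TaqMan Low Density Array, Human MicroRNA Panel, per the labels' protocols. The authors deposited 3 tables. Per the file headers these hold the average threshold cycle, delta Ct against RNU48, and the ratio (fold change) of ANGPTL1 over control. How many wells were averaged, and with which threshold and software is not given in the sources used here. Deposited delta Ct differed from the difference of the cycles by at most 0.01. The authors' deposited table gives 12.0-fold, 4.44-fold and 1.79-fold for miR-155, miR-146a and miR-146b.

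The log2 ratio is the control's delta Ct less that of ANGPTL1 cells. Ratios were used only below cycle 35 in both samples; for 1 sample alone the later cycle was set to 35. No test, error or p-value can be given with 1 sample per group. Code for the ratios and for the place of an assay within its window was tested on simulated data. The code for ranks by cycle was not. Named beyond the members were the 3 assays nearest in ratio, the extremes of each window, and listed miRNAs. The members and lists were chosen with earlier results of these data known, and more than the planned 6 miRNAs of the NF-kappaB list were named after their values were seen. Of the listed names, let-7i, miR-29b, miR-144 and miR-150 were not analysed here. Alternatives changed the reference, detection limit, fold size and window. Python 3.11.15 with pandas 2.3.3 was used.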

Additional observations from a re-analysis of the deposited data

How the results depend on the processing

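The order of the log2 ratios (miR-155, then miR-146a, then miR-146b) cannot change with the reference, which moves all 3 alike. Without a reference RNA miR-146b fell to a log2 ratio of 0.42, and with the global median cycle as reference to 0.37, against 3.11 for miR-155 and 1.68 for miR-146a. With the mean cycle or the median ratio as reference, both added after the data were seen together with the gain of 1.8 per cycle and the alternatives for the NF-kappaB list, the 3 ratios moved by about 0.01. The number of assays at least 2-fold higher (11) and lower (7) was 6 and 29 without a reference and 6 and 31 with the global median cycle. It stayed at 11 and 7 with the mean cycle or the median ratio as reference. It was 6 and 2 with detection below cycle 32, and 23 and 11 below cycle 38. It was 24 and 28 at 1.5-fold, and 4 and 2 at 4-fold. Other limits and sizes count other assays by construction. The share of assays of similar cycle with a lower ratio than miR-146a was 97.5%. It was 96.0% within 1 cycle, 96.5% within 2 cycles and 100% among the 20 nearest. MiR-155 was above all of its neighbours in every window run. For miR-146b the share, 90.9%, ranged from 89.3% to 96.8%. The median of the other NF-kappaB-linked assays, -0.42, was -0.84 without a reference and -0.89 with the global median cycle. Of the 11 assays behind it, 0 were at least 2-fold lower relative to RNU48, 5 without a reference and 5 with the global median cycle. With the mean cycle as reference that median was -0.43, and with the median ratio -0.41. Under both of these, 0 of the 11 were at least 2-fold lower. Detection below cycle 32 leaves miR-146a, at 32.38 in the control, without a ratio. There is no replicate to leave out. No paired analysis was possible because there is just 1 sample a group.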
